A study of Mus musculus with 6 samples.

Results

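Integrins and the other genes of leukocyte adhesion were followed in mouse bone marrow with and without intact Stag2, a gene for one of the cohesin proteins, which organise chromatin into loops. The set holds 31 genes of the 33924 listed in the deposited count table, chosen by symbol from what their proteins do: 21 integrin chains, the ligands Fn1, Icam1 and Icam2, the selectin Selp with the selectin ligand Selplg, the hyaluronan receptor Cd44, and Jam3, Esam, F11r and Cd47. Of these, 29 had enough reads to be tested, and Itga7 and Itgb8 did not. The genes were chosen with earlier results of these data known. RNA was sequenced from lineage-depleted marrow, that is, marrow from which magnetic beads had removed cells carrying markers of mature blood lineages. The 6 libraries comprised 3 of genotype Stag2KO and 3 of genotype Stag2WT. No other allele, inducing agent, age or strain is labelled for either group. Nothing says that replicates are different animals, and the p-values therefore cover the spread among these libraries, which may be technical.

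An integrin is a pair of an alpha and a beta chain that spans the membrane, binding matrix or a partner cell outside and the actin skeleton inside. The chains combine in a restricted code: beta1 pairs with many alpha chains, beta2 with the leukocyte alpha chains, and the pair decides the ligand. In bone marrow, alpha4beta1 and its counter-receptor Vcam1 hold progenitors near stromal cells and macrophages, while beta2 integrins and selectins serve the adhesion and exit of maturing leukocytes.

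Stag2 itself was read first, as a check of the labels. Its level was 169, 187 and 183 CPM (counts of a gene brought to the same total in each library) in the Stag2KO libraries against 338, 329 and 324 CPM in the Stag2WT libraries, or 54.4% of the wild-type mean. The groups did not overlap (log2 fold change -0.88, SE 0.06, edgeR adjusted p = 0.000278; two-sided exact permutation p = 0.1, the smallest that 3 against 3 samples allow). The sources used here do not give the part of the gene that the allele removes, so reads left in Stag2KO do not measure how many cells kept it. Gene reads per library ranged from 29435651 to 37722325. Reads in no annotated gene made up 11.1%, 12.8% and 11.2% of the Stag2KO libraries and 8.84%, 8.81% and 10.1% of the Stag2WT libraries, so this share moved with genotype.

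The adhesion genes did not move as a block. Genes with an adjusted p under 0.05 in the edgeR fit over all genes were called: 2 of the 29 tested were called higher in Stag2KO and 6 lower, and 21 were not called. That is 27.6% called, against 21.2% of all 15708 genes tested, with 10.7% of all genes higher and 10.5% lower. The median log2 fold change was 0.01, as over all genes, with 15 genes above 0 and 14 below. The groups did not overlap for 12 of the 29 (41.4%), against 43.5% of all genes. Neither this share nor the share called, each pooling both directions, stands far from the background. By direction, 6.9% of the tested adhesion genes were called higher and 20.7% lower, against 10.7% and 10.5% of all genes. Among the integrin chains, 4 of 13 tested alpha chains fell and none rose, while 1 of 6 tested beta chains rose and 1 fell. The beta chain that rose, Itgb6, entered the test only through its Stag2KO reads.

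**Figure D1:**
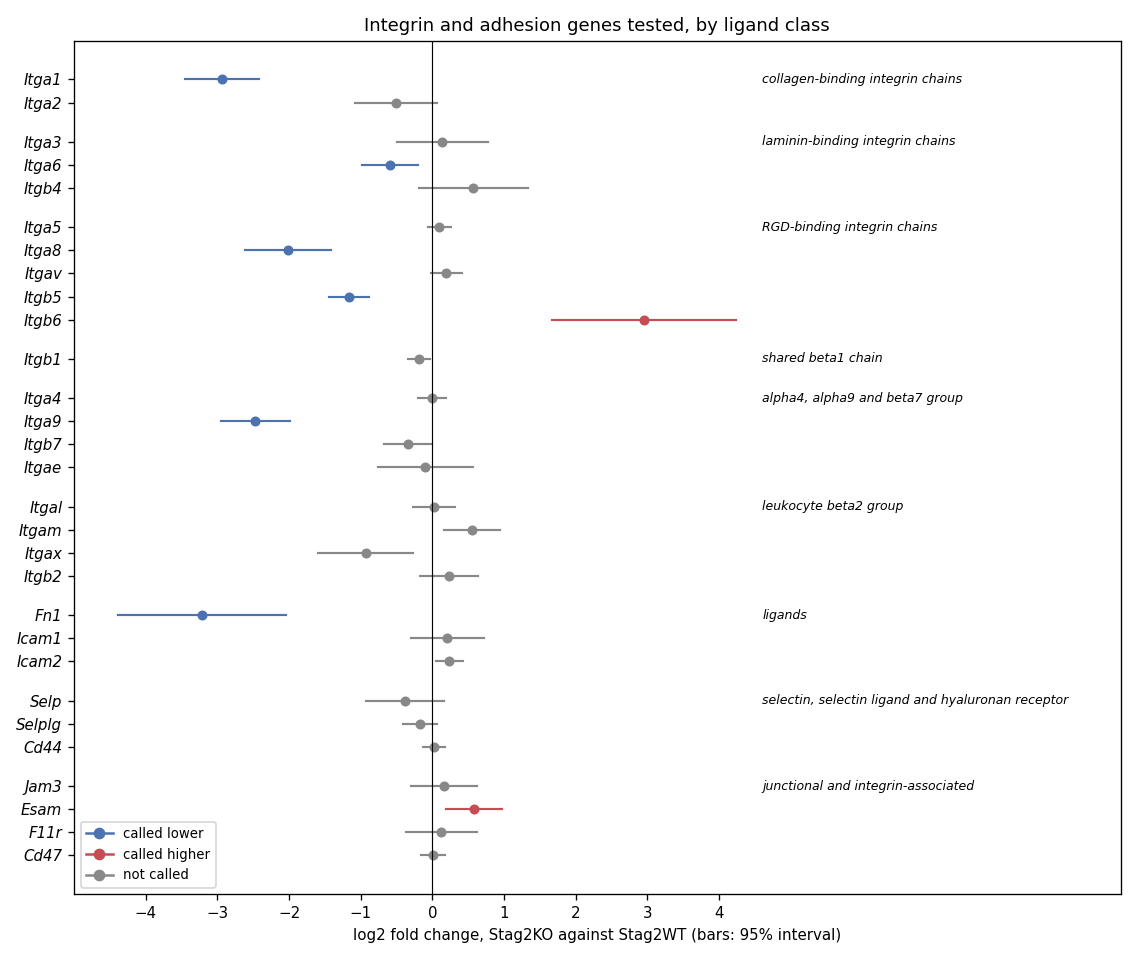
Log2 fold change of Stag2KO against Stag2WT for the 29 tested genes, in rows grouped by ligand class, with bars for the 95% interval and colour for the call. Fn1, Itga1, Itga9, Itga8 and Itgb5 lie furthest below 0, Itgb6 lies furthest above it, and most of the others sit close to 0 with 21 not called.

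The genes that fell were low or moderate in abundance, and the most abundant adhesion genes were not among them. In CPM per kilobase of transcript, a scale on which levels of different genes can be compared, the wild-type order opened with Selplg at 145 ± 11.1 (SD, n = 3), Itgb2 at 101 ± 20.4, Itgb1 at 89.5 ± 2.97 and Cd47 at 82.9 ± 1.60. The wild-type values of Itgb2 (85.7 to 124) spanned those of Itgb1 (87.6 to 93.0), so the order of Itgb2 and Itgb1 is not resolved. Both lay above Cd47 (82.0 to 84.7) in every wild-type library. Next came Itgb7 at 61.7 ± 8.69, then Itgal at 47.3 ± 7.40, Itgam at 47.2 ± 9.13, Cd44 at 45.9 ± 2.46 and Itga4 at 40.2 ± 3.29. Neighbours in this stretch overlapped in their wild-type values, except that every value of Cd44 lay above every value of Itga4. None of these first 9 of the 31 genes was called. Fn1 followed Itga4, at 27.1 ± 4.18 in Stag2WT and stood at 2.92 ± 1.51 in Stag2KO.

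The collagen receptors split. Itga1 encodes the alpha1 chain, which with beta1 forms a collagen and laminin receptor of mesenchymal cells and of some leukocytes. Its level was 1.47, 2.4 and 2.57 CPM in Stag2KO and 15.0, 15.0 and 19.8 CPM in Stag2WT, so every knockout library was far below every wild-type one. The means were 2.15 ± 0.588 and 16.6 ± 2.80 CPM (SD, n = 3 each), and the fitted difference was 7.66-fold (log2 fold change -2.94, SE 0.23, 95% interval -3.45 to -2.42, edgeR adjusted p = 0.000404). Itga2, which encodes the alpha2 chain of the other collagen receptor, was at 5.04, 7.65 and 7.78 CPM in Stag2KO against 9.85, 6.85 and 12.4 CPM in Stag2WT. Those groups overlapped, and the log2 fold change of -0.51 (95% interval -1.08 to 0.07) was not called (edgeR adjusted p = 0.181). Within a library, Itga1 reads per Itga2 read came to 0.293, 0.313 and 0.330 in Stag2KO and 1.52, 2.18 and 1.59 in Stag2WT, without overlap. Itga1 was called under every alternative run, including the fit with the no-gene read share as a covariate (edgeR adjusted p = 0.0243), where no other of the 31 genes was called.

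Of the laminin receptors only Itga6 was called. Itga6, the alpha6 chain carried by many stem and progenitor cells, stood at 48.5, 45.7 and 64.7 CPM in Stag2KO and at 73.9, 71.0 and 94.9 CPM in Stag2WT. The groups did not overlap, though the highest knockout library came close to the lowest wild-type one (log2 fold change -0.59, SE 0.16, edgeR adjusted p = 0.0434). That call was lost without the filter on low counts (0.0636) and in 5 of 6 edgeR fits that left out a library: adjusted p was 0.122 without Stag2KO replicate 1, 0.115 without Stag2KO replicate 2, and 0.0710, 0.0820 and 0.0885 without Stag2WT replicates 1, 2 and 3. Over the 6 fits its log2 fold change ran from -0.76 to -0.45. Its partner chain Itgb4 was low, at 1.71, 1.63 and 0.943 CPM against 0.723, 0.800 and 1.35 CPM, and the groups overlapped (edgeR adjusted p = 0.245). Itga3, another laminin-binding alpha chain, was under 1 CPM in every library, with an edgeR adjusted p of 0.746. Itga7, the muscle-type alpha7 chain, had 6, 0 and 9 reads in Stag2KO and 1, 1 and 2 in Stag2WT, and was not tested.

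Among the chains whose integrins recognise the RGD tripeptide of fibronectin and vitronectin, the alpha chains Itga5 and Itgav were not called, while other chains moved in both directions. Itga5, the alpha5 chain of the classical fibronectin receptor, ranged from 78.0 to 80.9 CPM in Stag2KO and from 70.0 to 81.3 CPM in Stag2WT, with overlap (log2 fold change 0.10, 95% interval -0.07 to 0.26, edgeR adjusted p = 0.354). Itgav, the alpha chain shared by several RGD receptors, was at 33.0, 33.7 and 35.4 CPM against 31.5, 26.3 and 31.4 CPM, and although the groups did not overlap the gene was not called (edgeR adjusted p = 0.163). Its partner Itgb5, a vitronectin-receptor beta chain, fell: 12.4, 12.2 and 14.7 CPM in Stag2KO against 30.4, 25.4 and 32.1 CPM in Stag2WT. The fitted change was 2.24-fold (log2 fold change -1.16, SE 0.12, edgeR adjusted p = 0.00113), and no knockout library reached any wild-type one. Reads of Itgb5 per read of Itgav were 0.374, 0.361 and 0.416 in Stag2KO and 0.966, 0.965 and 1.02 in Stag2WT.

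Itga8 and Itgb6 are RGD-binding chains known mainly from mesenchymal and epithelial tissue, and both were rare here. Itga8 fell from 2.56, 1.94 and 1.87 CPM in Stag2WT to 0.411, 0.654 and 0.498 CPM in Stag2KO, that is, from 92, 68 and 64 reads to 12, 24 and 19. The groups were far apart on both scales (fitted 4.03-fold lower, log2 fold change -2.01, SE 0.26, edgeR adjusted p = 0.0023). Itgb6, the beta6 chain, went the other way, with 12, 17 and 36 reads in Stag2KO and 4, 1 and 3 in Stag2WT. Its Stag2WT reads alone fell short of the filter on low counts. Itgb6 was thus tested only because Stag2KO was high, and could be called only as a rise. Although the groups did not overlap (log2 fold change 2.96, SE 0.56, edgeR adjusted p = 0.00955), the rise rests on 65 reads against 8, a ratio per gene read of 8.47 with an exact 95% counting interval from 4.05 to 20.4 that covers counting error only. Itgb8 had 1, 0 and 0 reads in Stag2KO and 2, 1 and 0 in Stag2WT, and was not tested.

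**Figure D2:**
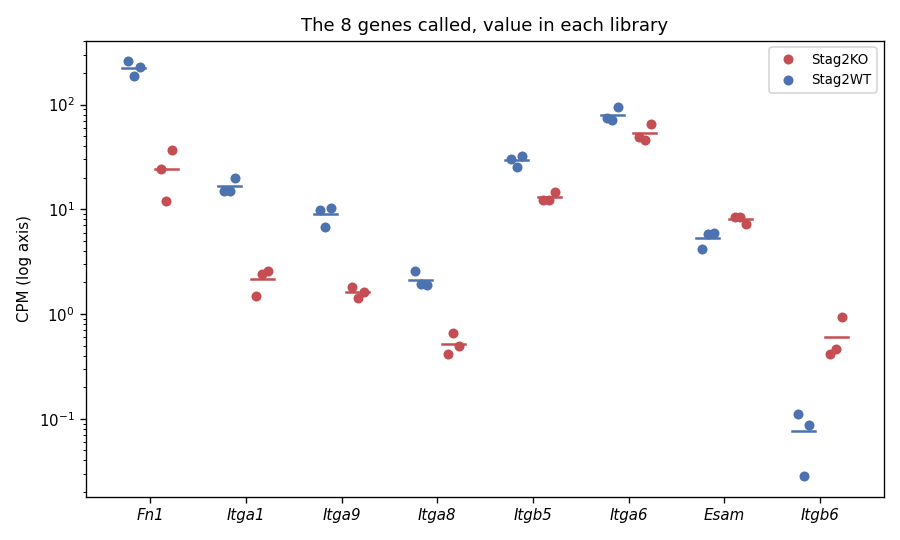
CPM on a log axis in each library for the 8 genes called, with a line at each group's mean, red for Stag2KO and blue for Stag2WT. Fn1, Itga1, Itga9, Itga8 and Itgb5 show wide gaps between the groups, Itga6 and Esam narrow ones, and Itgb6 stays under 1 CPM throughout.

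Itgb1, the beta1 chain that most of these alpha chains need, was read at 279, 312 and 307 CPM in Stag2KO and 336, 355 and 334 CPM in Stag2WT. The groups did not overlap, yet the difference was small (log2 fold change -0.19, 95% interval -0.35 to -0.04) and not called by edgeR (adjusted p = 0.0765). DESeq2 called it (adjusted p = 0.0427). Read per Itgb1 read, Itga1, Itga9 and Itga8 were lower in every Stag2KO library than in any Stag2WT one, with differences in mean log2 ratio of -2.79, -2.26 and -1.85. For Itga4 and Itga5 the same ratio was higher in every Stag2KO library, by 0.18 and 0.29. The Itga6 ratio overlapped between groups, with a difference of -0.41. In all, 15 pairs of chains were compared in this way, picked after the values of single genes were known. Of these, 11 did not overlap, and each of those had a two-sided exact permutation p = 0.1, the smallest possible here, which becomes 0.136 when adjusted over the 15. Among single genes, 43.5% of all tested did not overlap. No share was computed over other gene pairs, so the count of pairs has no background of its own.

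The alpha4 group separated 2 close relatives. Itga4, the alpha4 chain through which progenitors bind Vcam1 and fibronectin, was at 363, 419 and 388 CPM in Stag2KO and 415, 356 and 407 CPM in Stag2WT. The ranges overlapped almost fully, and the log2 fold change of -0.01 had a 95% interval from -0.20 to 0.18 (edgeR adjusted p = 0.948). Itga9, the alpha9 chain, whose integrin binds tenascin and osteopontin, fell from 9.93, 6.71 and 10.2 CPM in Stag2WT to 1.82, 1.42 and 1.62 CPM in Stag2KO. No libraries of opposite groups came near each other (fitted 5.53-fold lower, log2 fold change -2.47, SE 0.21, edgeR adjusted p = 0.00057). Gm2415, annotated on the opposite strand within Itga9, held only 0.405 CPM on average in Stag2KO and 0.543 in Stag2WT. Itgb7, the beta7 chain that joins alpha4 in gut-homing lymphocytes, was at 125, 114 and 155 CPM against 182, 139 and 176 CPM, with overlap (log2 fold change -0.34, edgeR adjusted p = 0.129). Leaving out Stag2KO replicate 3, the highest of its group, brought Itgb7 to an edgeR adjusted p of 0.0419. Itgae, the alphaE chain of epithelial T cells, lay between 1.48 and 3.09 CPM in all 6 libraries, with overlapping groups (edgeR adjusted p = 0.830).

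No member of the leukocyte beta2 group passed the test, although 2 of its alpha chains came near it from opposite sides. Itgb2, the beta2 chain, was at 381, 288 and 386 CPM in Stag2KO and 369, 255 and 277 CPM in Stag2WT (log2 fold change 0.23, edgeR adjusted p = 0.369), and Itgal, the alphaL chain of lymphocyte function-associated antigen, had a log2 fold change of 0.02 (95% interval -0.27 to 0.32; edgeR adjusted p = 0.908). Itgam, the alphaM chain of granulocytes and monocytes known as CD11b, was at 372, 270 and 335 CPM in Stag2KO and 270.2, 193 and 200 CPM in Stag2WT. The groups overlapped only where the lowest knockout library met the highest wild-type library (log2 fold change 0.56, 95% interval 0.17 to 0.95, edgeR adjusted p = 0.0535). Itgax, the alphaX chain known as CD11c and carried by dendritic cells and macrophages, was at 20.8, 25.9 and 35.6 CPM in Stag2KO and 63.3, 36.9 and 56.9 CPM in Stag2WT. The groups did not overlap, with a narrow gap between Stag2KO replicate 3 and Stag2WT replicate 2 (log2 fold change -0.93, 95% interval -1.59 to -0.27, edgeR adjusted p = 0.0586).

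The calls for Itgam and Itgax depended on the test. DESeq2 called both, with adjusted p = 0.00299 for Itgam and 0.000267 for Itgax, as did limma-voom (0.0421 and 0.0402) and the edgeR fit without robust dispersion (0.0437 and 0.0349). With edgeR, Itgam was called when Stag2KO replicate 2 (0.0378) or Stag2WT replicate 1 (0.0167) was left out, and Itgax when Stag2KO replicate 3 (0.0391) or Stag2WT replicate 2 (0.0354) was. Within a library, the ratio of Itgam to Itgax reads was 17.9, 10.4 and 9.40 in Stag2KO and 4.27, 5.23 and 3.52 in Stag2WT. Reads of Itgam per read of Itgb2 were 0.977, 0.937 and 0.868 against 0.732, 0.757 and 0.723, also without overlap.

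**Figure D3:**
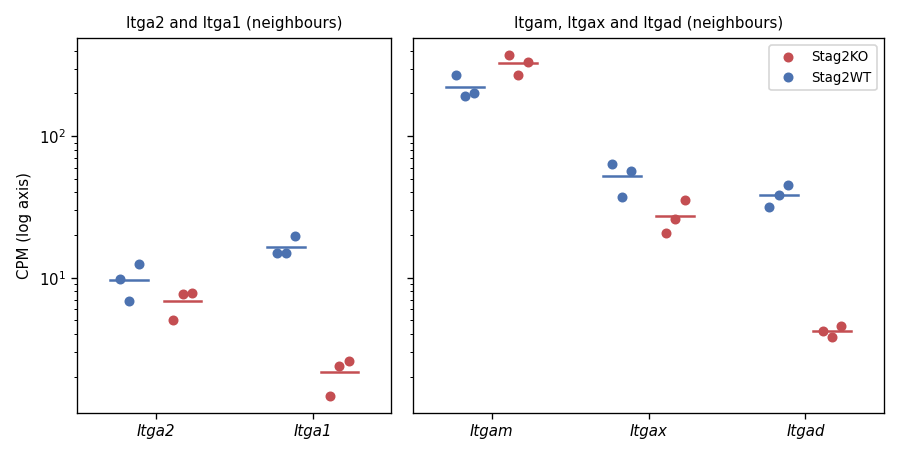
CPM on a log axis in each library for Itga2 and Itga1 (left) and for Itgam, Itgax and Itgad (right), genes next to each other among the tested genes of their chromosome, with a line at each group's mean, blue for Stag2WT and red for Stag2KO. Itga2 overlaps between groups while Itga1 does not, and from Itgam to Itgad the Stag2KO mean goes from above the Stag2WT mean, with overlapping libraries, to well below it.

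Some of these genes are neighbours among the tested genes, so unequal change could be set against position. Gene order came from the GRCm38 annotation, with genes that were not tested left out. In that order Itga2 and Itga1 are adjacent on the same strand, and Itgam, Itgax and Itgad follow each other on the same strand. Itgad, the alphaD chain of tissue macrophages and an integrin chain outside the 31, fell from 31.5, 38.3 and 44.9 CPM in Stag2WT to 4.18, 3.84 and 4.58 CPM in Stag2KO (log2 fold change -3.18, SE 0.15, edgeR adjusted p = 7.2e-05). Along the 3 genes the log2 fold changes were thus 0.56, -0.93 and -3.18. Pelo, whose gene lies within the span of Itga1 on the same strand, was not called (log2 fold change -0.26, edgeR adjusted p = 0.0704). Parp8, the nearest tested gene on the other side of Itga1, rose (0.37, edgeR adjusted p = 0.0285). Pycard, an inflammasome adaptor gene on the opposite strand, was the nearest tested gene before Itgam and fell (-0.48, edgeR adjusted p = 0.00334). Because reads that align to more than 1 place are left out of gene counts, paralogous stretches of Itgam, Itgax and Itgad may be undercounted alike in both groups.

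The start regions of the 4 adjacent genes of the set, Itgam, Itgax, Itga2 and Itga1, were searched for short motifs. Each runs from 250 bases before to 50 bases after a transcript start in RefSeq on build GRCm38.p6, 5′ to 3′ on the gene's strand. Capitals mark exact matches, on either strand, to 1 of 3 short motifs: GAGGAA (the core bound by PU.1, a myeloid and B-cell factor), AGATAA (bound by GATA factors) and TGTGGT (bound by RUNX factors), none of which overlap each other.
Itgam, chr7:128062390-128062689, plus strand: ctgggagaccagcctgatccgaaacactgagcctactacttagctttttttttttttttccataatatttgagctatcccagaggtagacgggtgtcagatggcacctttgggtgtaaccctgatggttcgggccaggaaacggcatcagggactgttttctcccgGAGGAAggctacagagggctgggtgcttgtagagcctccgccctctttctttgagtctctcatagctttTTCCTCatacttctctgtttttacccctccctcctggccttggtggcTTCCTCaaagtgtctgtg
Itgax, chr7:128129300-128129599, plus strand: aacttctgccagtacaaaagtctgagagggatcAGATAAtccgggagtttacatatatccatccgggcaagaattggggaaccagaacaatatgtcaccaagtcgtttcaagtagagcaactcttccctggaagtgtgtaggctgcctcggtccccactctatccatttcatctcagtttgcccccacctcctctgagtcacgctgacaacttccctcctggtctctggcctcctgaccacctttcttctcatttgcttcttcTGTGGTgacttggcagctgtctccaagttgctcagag
Itga2, chr13:114932051-114932350, minus strand: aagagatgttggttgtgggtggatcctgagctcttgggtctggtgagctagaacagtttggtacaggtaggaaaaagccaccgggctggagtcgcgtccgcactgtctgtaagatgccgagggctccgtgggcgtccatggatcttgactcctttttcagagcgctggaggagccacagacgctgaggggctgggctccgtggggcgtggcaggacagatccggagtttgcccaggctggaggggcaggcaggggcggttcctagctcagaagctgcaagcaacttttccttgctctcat
Itga1, chr13:115101915-115102214, minus strand: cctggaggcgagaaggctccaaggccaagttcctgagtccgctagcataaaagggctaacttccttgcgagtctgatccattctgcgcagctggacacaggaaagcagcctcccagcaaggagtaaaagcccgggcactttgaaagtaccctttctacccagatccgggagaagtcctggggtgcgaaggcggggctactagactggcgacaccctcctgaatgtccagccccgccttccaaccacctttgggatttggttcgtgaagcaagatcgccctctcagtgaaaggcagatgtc
The Itgam start region held 3 matches to GAGGAA and the Itgax one none, but 1 each to AGATAA and TGTGGT. Neither the Itga2 nor the Itga1 region held any of the 3. Among all 32851 promoters of this length in the table, 28.3% held GAGGAA, 11.2% AGATAA and 16.8% TGTGGT. The 20 genes of the set that the table covers have 23 promoters, of which 9 held GAGGAA, 2 AGATAA and 3 TGTGGT. A match is a run of letters and was not tied to binding in these data. The part of promoters or of surroundings in the unequal change of neighbours was not tested.

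Among the ligands Fn1 fell, by a size close to that of Itga1. It encodes fibronectin, the matrix protein bound by alpha5beta1 and alpha4beta1, and its transcripts are made by stromal cells and macrophages. Fn1 stood at 24.0, 11.9 and 37.0 CPM in Stag2KO and 258, 189 and 229 CPM in Stag2WT. The knockout libraries differed widely among themselves, yet the highest stayed far below the lowest wild-type library. The means of 24.3 ± 12.5 and 225 ± 34.8 CPM (SD, n = 3 each) gave a fitted fold of 9.27 (log2 fold change -3.21, SE 0.45, 95% interval -4.39 to -2.04, edgeR adjusted p = 0.0122), and leaving out Stag2KO replicate 1 took the adjusted p to 0.0565. Icam1 and Icam2, the cell-surface ligands of beta2 integrins, were not called. Icam1 ranged from 15.2 to 27.6 CPM over all 6 libraries with overlapping groups (edgeR adjusted p = 0.517). Icam2 was at 40.7, 38.0 and 43.2 CPM in Stag2KO and 33.7, 33.0 and 36.8 CPM in Stag2WT, a small difference without overlap (log2 fold change 0.24, 95% interval 0.05 to 0.43, edgeR adjusted p = 0.0741).

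The rolling receptors and the hyaluronan receptor showed overlapping groups throughout. Selplg, the leukocyte ligand of P-selectin, was at 215, 226 and 277 CPM in Stag2KO and 281, 246 and 282 CPM in Stag2WT (edgeR adjusted p = 0.270). Selp, P-selectin itself, stored by platelets and endothelium, lay between 2.88 and 5.53 CPM (edgeR adjusted p = 0.276). In the GRCm38 annotation Gm16587 lies on the opposite strand of Selp, and without a known strand setting reads of the 2 genes cannot be told apart. Gm16587 averaged 0.546 CPM in Stag2KO and 0.162 in Stag2WT, and its Stag2WT reads alone fell short of the filter on low counts. It was thus tested only through its Stag2KO reads and could be called only as a rise. Its call as higher (log2 fold change 1.73, edgeR adjusted p = 0.0117) carries that limit. Cd44 was the most even of the abundant genes, at 246 to 273 CPM in all 6 libraries (log2 fold change 0.02, 95% interval -0.13 to 0.17, edgeR adjusted p = 0.822).

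Of the junctional molecules Esam alone was called. Esam, an adhesion molecule of endothelium, megakaryocytes and stem cells, was at 8.43, 8.41 and 7.18 CPM in Stag2KO and 4.2, 5.85 and 5.94 CPM in Stag2WT. The groups did not overlap (8.01 ± 0.718 against 5.33 ± 0.98 CPM, SD, n = 3 each; log2 fold change 0.59, SE 0.17, edgeR adjusted p = 0.0433). The call was lost whichever of the 6 libraries was left out, with edgeR adjusted p from 0.0590 to 0.116 and log2 fold changes from 0.44 to 0.67. Cd47, an integrin-associated protein that also tells macrophages not to engulf a cell, was at 398, 464 and 451 CPM against 445, 430 and 431 CPM (log2 fold change 0.01, 95% interval -0.16 to 0.18, edgeR adjusted p = 0.943). Jam3 and F11r, junctional adhesion molecules, stayed between 1.89 and 4.52 CPM with overlapping groups and edgeR adjusted p of 0.583 and 0.702.

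**Figure D4:**
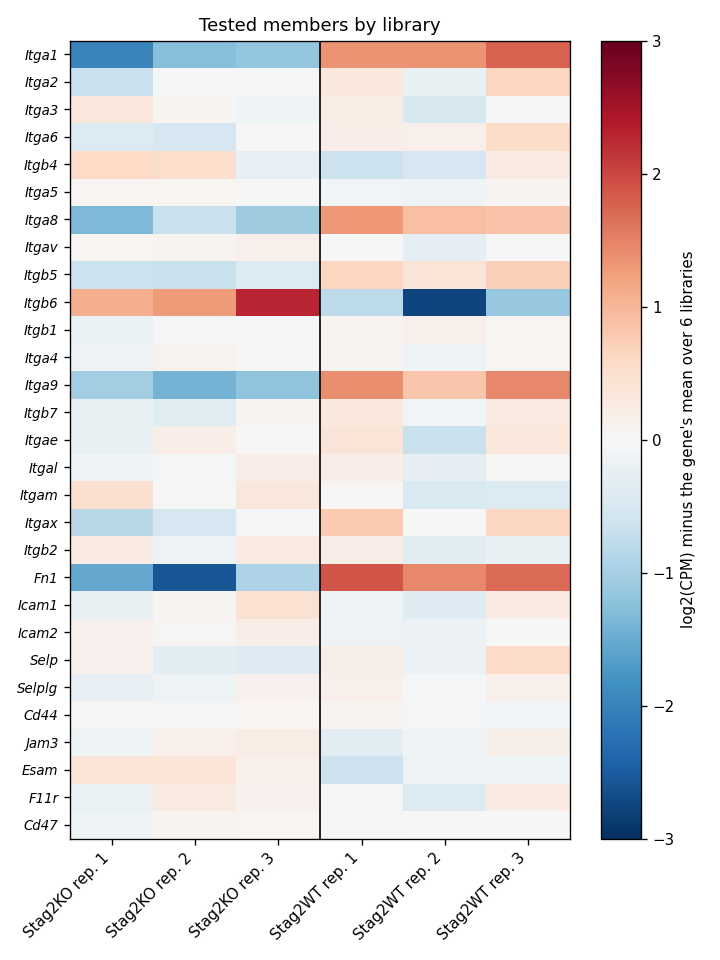
Heat map of the 29 tested genes (rows) in the 6 libraries (columns), coloured by log2 CPM minus the gene's mean over the libraries. Fn1, Itga1, Itga9, Itga8 and Itgb6 change colour between the 3 Stag2KO and the 3 Stag2WT columns, while Cd47, Cd44, Itga4 and Itga5 stay pale across all 6.

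Cell-type markers were read beside these genes, since marrow left after lineage depletion is a mixture and, in bulk RNA, fewer cells of a type and less RNA per cell cannot be told apart. For scale, 10.7% of all genes tested were called higher and 10.5% lower. Of 12 macrophage markers 11 fell, and their summed level was 194 to 301 CPM in Stag2KO against 1037 to 1137 CPM in Stag2WT. Among the 11, Marco (11, 6 and 9 reads in Stag2KO) was tested only because of its Stag2WT reads and could be called only as a fall. The 12 had a median log2 fold change of -2.34, ranging from -3.65 for Siglec1, a sialic acid receptor, to -0.74 for Timd4, a receptor for dying cells, which was not called. The markers with the smallest p were Cd163, a haemoglobin scavenger receptor, at -2.44, Axl, a receptor kinase, at -2.81, and Siglec1 (edgeR adjusted p = 7.2e-05, 0.00057 and 0.000755). Their direction was that of Itga1, Itga9, Itgb5, Itga8, Itga6, Itgad and Fn1. That direction was shared by every called marker of the stroma, B-cell, T-cell, monocyte and erythroid lists. Of 9 stroma markers 6 fell, with 52.7 to 99.6 CPM in sum against 179 to 189 CPM. All 10 B-cell markers fell, with 91.8 to 105 CPM against 222 to 339 CPM. None of the defining markers in these lists was at 0 in every library, and the part of macrophages, stroma or B cells in the falls of the adhesion genes was not tested.

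The other marker lists moved in both directions. Of 7 eosinophil markers 6 rose, from a sum of 1078 to 1612 CPM in Stag2WT to 3522 to 5335 CPM in Stag2KO. Of 11 neutrophil markers 5 rose: Mpo, Elane, Prtn3, Ctsg and Cebpe. Their list summed to 15813 to 17013 CPM in Stag2WT and 17883 to 24360 CPM in Stag2KO, with Mpo alone at means of 5093 and 7611 CPM. Not called, with overlapping groups, were Ltf, Camp, Ngp, Lcn2, S100a8 and S100a9, and the last 2 had negative log2 fold changes (-0.26 and -0.12). Of 6 monocyte markers 4 fell and none rose, with sums of 960 to 1068 CPM in Stag2KO against 1186 to 1329 CPM in Stag2WT. Of 6 basophil and mast-cell markers 3 fell, Mcpt8, Prss34 and Fcer1a, and 1 rose, with sums of 1743 to 1849 against 2502 to 2601 CPM. Of 5 T-cell markers 3 fell, and of 8 erythroid markers 3 fell. Granulocytes and monocytes carry Itgam and Itgb2, and their part in the values of those genes was not tested. Of 9 megakaryocyte markers 1 rose (11.1%, against 10.7% of all genes tested), with overlapping sums of 166 to 215 CPM in Stag2KO and 145 to 216 CPM in Stag2WT. Of 8 endothelial markers 4 rose and 1 fell, with sums of 166 to 186 against 146 to 176 CPM, and of 8 stem and progenitor markers 3 rose, with sums of 567 to 686 against 496 to 617 CPM. The part of any of these in the rise of Esam was not tested.

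**Figure D5:**
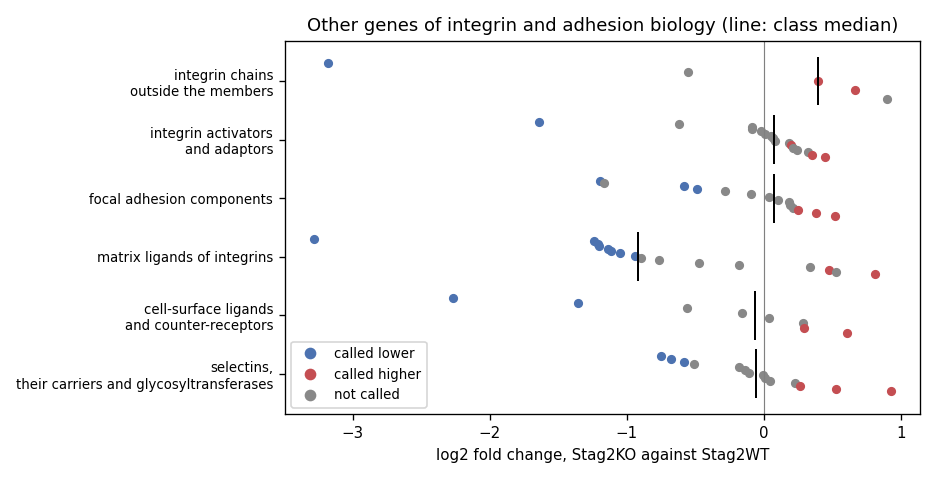
Log2 fold change of Stag2KO against Stag2WT for 73 tested genes of 6 further classes of integrin and adhesion biology, 1 dot a gene, coloured by call, with a line at each class median. The matrix ligands lie mostly below 0 with a median of -0.92, and the medians of the other classes lie between -0.06 and 0.40.

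Further genes of the same biology came from a list of 79, of which 73 were tested: 15 rose, 18 fell and 40 were not called, with a median log2 fold change of -0.01. That is 45.2% called, against 21.2% of all genes tested, and the share was 62.5% for the matrix ligands. The list was drawn up with earlier results of these data known, so these shares are a description and not an independent result. The fibrinogen receptor of platelets and megakaryocytes was higher in both chains. Itgb3, its beta3 chain, rose from 59.0, 57.9 and 78.2 CPM in Stag2WT to 100.3, 106 and 103 CPM in Stag2KO (log2 fold change 0.66, edgeR adjusted p = 0.0070). Itga2b, its alpha chain and an early megakaryocyte and progenitor marker, was at 215, 283 and 217 CPM against 179, 169 and 195 CPM (log2 fold change 0.40, edgeR adjusted p = 0.0426). The Itga2b call was lost without Stag2KO replicate 2 (0.0749) and without Stag2WT replicates 1, 2 or 3 (0.101, 0.143 and 0.0608). Itgb2l, a relative of the beta2 chain, was at 103, 61.7 and 85.8 CPM in Stag2KO and 57.3, 40.0 and 36.3 CPM in Stag2WT, without overlap and without a call (edgeR adjusted p = 0.0512). DESeq2 (adjusted p = 0.00014), limma-voom (0.0296), edgeR without robust dispersion (0.0277) or with the filter of 5 CPM (0.0435), and edgeR without Stag2KO replicate 2 (0.0302) or Stag2WT replicate 1 (0.0295) did call Itgb2l. Itga10 was not called (edgeR adjusted p = 0.127). Itga11 was not tested.

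Matrix ligands were the class with the lowest median, -0.92: 8 of 16 tested fell, 2 rose and 6 were not called. Among the 8, Lama4 (10, 8 and 18 reads in Stag2KO) was tested only because of its Stag2WT reads and could be called only as a fall. Lamb1, a laminin beta chain, fell from 8.93, 3.88 and 5.44 CPM in Stag2WT to 0.308, 0.626 and 0.891 CPM in Stag2KO (log2 fold change -3.29, edgeR adjusted p = 0.00329). Tnc, tenascin-C, which the alpha9 integrin binds, fell by 1.05 on the log2 scale (edgeR adjusted p = 0.00994). Lamc1, a laminin gamma chain, and Emilin1, an elastic-fibre protein bound by alpha4beta1, rose by 0.81 and 0.47 (edgeR adjusted p = 0.00496 and 0.0050). Col1a1 and Col1a2, the collagen I chains, were also read as stroma markers, and both fell. Among 8 tested cell-surface ligands 2 fell and 2 rose. Vcam1, the counter-receptor of alpha4beta1 and also one of the macrophage markers, fell from 294, 258 and 293 CPM to 119, 86.1 and 125 CPM (log2 fold change -1.36, edgeR adjusted p = 0.00154). Cdh1, E-cadherin, the ligand of the alphaE integrin, fell from 79.8, 63.2 and 75.4 CPM to 14.8, 12.2 and 18.3 CPM (log2 fold change -2.27, edgeR adjusted p = 0.000406). Both ligands fell, while the receptor chains Itga4, Itgb7 and Itgae were not called. Alcam rose by 0.61 (edgeR adjusted p = 0.00825), and so did Pecam1 by 0.30 (edgeR adjusted p = 0.0369).

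Classes of genes acting inside the cell had medians close to 0. Of 16 tested activators and adaptors 3 rose and 1 fell, with a median log2 fold change of 0.08. Fermt2, kindlin-2, the kindlin of adherent non-blood cells, fell by 1.64 (edgeR adjusted p = 0.00459). Fermt3, the blood-cell kindlin, rose by 0.20 (adjusted p = 0.0470), Rasgrp2, an activator of Rap1 in platelets and neutrophils, by 0.35 (0.0339), and Rassf5, a Rap1 effector, by 0.45 (0.00899). Of 14 tested focal adhesion genes 3 rose and 3 fell, with a median of 0.07. Zyx, zyxin, rose by 0.52 (edgeR adjusted p = 0.00304) and Lims1, an adaptor, by 0.25 (0.0172), while Actn1, an actin crosslinker, fell by 0.58 (0.0165) and Ptk2, focal adhesion kinase, fell by 0.48 (0.0190). Of 14 selectin, carrier and glycosyltransferase genes 3 rose and 3 fell, with a median of -0.06. In that class Cd34, a selectin carrier and also one of the progenitor markers, rose by 0.53 (edgeR adjusted p = 0.0222) and B4galt1 by 0.26 (0.0233), while Tpst1, which sulphates selectin ligands, fell by 0.58 (0.0130) and St3gal6, a sialyltransferase, fell by 0.75 (0.0239).

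Several of these smaller changes lost their call when a library was left out, with no change of sign. In such edgeR fits Fermt3 lost its call in all 6 (adjusted p 0.0666 to 0.131), at log2 fold changes of 0.18 to 0.23. Actn1 lost it without Stag2WT replicate 3 (0.0516), and Lims1 without Stag2KO replicates 1 and 3 (0.0597 and 0.0612), with log2 fold changes of -0.66 to -0.46 for Actn1 and 0.24 to 0.26 for Lims1 over the 6 fits. Ptk2 lost it without Stag2KO replicates 2 and 3 and Stag2WT replicate 2 (0.0665, 0.0665 and 0.0545), and St3gal6 without each Stag2KO replicate (0.0526, 0.0701 and 0.0722). Without Stag2WT replicate 1 or 2 the calls of Cd34 (0.0631, 0.0881), Pecam1 (0.0749, 0.0828), Rasgrp2 (0.0992, 0.108) and B4galt1 (0.0704, 0.0590) were lost. Stag2KO replicates 2 and 3 were also needed for Cd34 (0.0656, 0.0578) and Pecam1 (0.109, 0.102), and replicates 1 and 3 for Rasgrp2 (0.103, 0.0788) and B4galt1 (0.0800, 0.0679). Over the 6 fits the log2 fold changes ran from -0.54 to -0.44 for Ptk2, -0.88 to -0.52 for St3gal6, 0.45 to 0.66 for Cd34, 0.23 to 0.35 for Pecam1, 0.28 to 0.43 for Rasgrp2 and 0.22 to 0.30 for B4galt1. Rassf5, Zyx, Fermt2, Lamb1, Lamc1, Emilin1, Tnc, Vcam1, Cdh1, Alcam, Tpst1, Itgb3 and Itgad were called in all 6 such fits.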

How the data were processed

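RNA was read from 6 libraries of lineage-depleted mouse marrow, grouped by the labelled genotype, with replicates numbered in accession order. The authors deposited raw read counts per gene symbol. The build was mm9 and the tools STAR 2.4, HTSeq 0.6.1 and DESeq2, per the submitters' processing notes. Annotation, library kit and strand setting of these samples are not in the sources used here, so reads of overlapping genes cannot be told apart. Rows naming no gene (no feature 8.81% to 12.8%, ambiguous 2.02% to 2.20%, aligned to several places 23.4% to 28.6%) did not enter library sizes or tests.

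Counts of all genes were fitted in R 4.3.3 with edgeR 4.0.16 (TMM, filterByExpr, robust quasi-likelihood test, genotype as the only term), with Benjamini-Hochberg adjustment over 15708 genes, and called at an adjusted p under 0.05. CPM uses TMM-scaled library sizes, and SE and 95% intervals come from that fit. The fits were tested on simulated data. Levels per kilobase use the longest protein-coding GENCODE transcript of GRCm38, which may differ from the isoform expressed. Every gene of the set was named, with up to 4 called genes of smallest p in each further class, all integrin chains and up to 3 markers of a list; other genes, and the chain pairs, were picked after their values were seen. The genes and lists were chosen with earlier results of these data known. Adgre1 and Siglecf were found as Emr1 and Siglec5 through RefSeq synonyms. RefSeq promoters matched 20 of the 31 genes. Protein features were not analysed here. Results were recomputed with DESeq2 1.42.0 and with limma-voom (limma 3.58.1), and in edgeR with median-ratio size factors, with genes kept at 1 read or at 5 CPM in 3 libraries, without robust dispersion, with the no-feature share as a covariate, and with each library left out.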

Additional observations from a re-analysis of the deposited data

How the results depend on the processing

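The count of the 31 genes called higher and lower in Stag2KO was 2 and 6 in the edgeR fit, 3 and 8 with DESeq2, 3 and 7 with limma-voom or without robust dispersion, 2 and 6 with median-ratio size factors, 2 and 5 with no filter beyond 1 read, and 1 and 5 with the filter of 5 CPM, which no longer tests Itgb6 and Itga8. With the no-gene read share as a covariate, whose correlation with genotype is 0.868, it was 0 higher and 1 lower, all genes called fell from 3333 to 67, and the further adhesion genes called were 0 higher and 1 lower (Itgad). Under that covariate these log2 fold changes turned sign, none of them called there: Cd47 -0.10, F11r -0.48, Icam1 -0.094, Itga10 0.12, Itga2b -0.092, Itga5 -0.060, Itgb4 -0.22 and Jam3 -0.19. Cd47 turned to -0.0029 with no filter. Leaving out 1 library at a time gave 1 to 2 of the 31 genes called higher, 4 to 8 lower, and 1967 to 2548 of all genes. Further adhesion genes called were 7 to 12 higher and 10 to 14 lower, fewest without Stag2KO replicate 3 or Stag2WT replicate 2 for the former and without Stag2KO replicate 2 for the latter. All genes called were fewest without Stag2KO replicate 1, 2 or 3 or Stag2WT replicate 2 (2044, 2016, 1967 and 1990). Log2 fold changes near 0 crossed it in these fits: Cd44 -0.011 to 0.065, Cd47 -0.033 to 0.073, F11r -0.026 to 0.29, Itga3 -0.032 to 0.30, Itga4 -0.074 to 0.040, Itgae -0.37 to 0.073 and Itgal -0.091 to 0.13. The cause of each of these shifts was not tested, beyond the fewer genes or libraries some alternatives use. No paired analysis was possible because the labels give the groups no shared replicate numbers. Itgb6, Itga8, Itga3, Itga7 and Itgb8 have so few reads that differences of modest size were not detectable at this depth.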

Other observations

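Within the wild-type group, 1 library was low across adhesion genes: Stag2WT replicate 2 held the lowest of its group's 3 values for 23 of the 29 tested genes (79.3%), against 36.7% of all genes tested. In the Stag2KO group, replicate 1 was lowest for 15 of the 29 (51.7%, against 35.1% of all genes) and replicate 3 highest for 16 (55.2%, against 30.9% of all genes). Itgax and Itgb7, whose calls turned on single libraries, are among the genes this touches. Within their groups both were lowest in Stag2WT replicate 2 and highest in Stag2KO replicate 3. Itgam was also lowest of its group in Stag2WT replicate 2, but in the Stag2KO group it was highest in replicate 1. Its call turned on Stag2KO replicate 2 and Stag2WT replicate 1.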
